A study of Mus musculus with 12 samples.

Results

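The genes described here encode secreted ligands of the TGF-β family, together with proteins that process, tether or neutralize such ligands, in mouse bone marrow-derived macrophages (BMDMs). The set held 10 of the 18376 genes of the deposited table and was fixed by gene symbol. It comprised 7 ligand genes (Tgfb1, Tgfb2, Tgfb3, Inhba, Gdf15, Gdf3 and Gdf11) and 3 genes whose products are not themselves family ligands: Bmp1, a metalloproteinase that cleaves procollagens, Fstl3, a secreted protein that binds activins, and Nrros, which holds latent TGF-β1 on the surface of myeloid cells. All 10 were listed in the table. Tgfb2 and Gdf11 had a mean below 5 normalized counts over the 12 libraries and were too low to judge, so that 8 genes were tested.

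RNA sequencing covered 12 libraries in 4 groups of 3. All cells came from the bone marrow of adult wild-type C57BL/6J mice and were differentiated with 50 ng/ml M-CSF, a growth factor for macrophages. CTRL cells received nothing further, Act cells 50 ng/ml recombinant activin A, FST cells 250 ng/ml FST288, and Act + FST cells both, for 6 days. FST288 is a form of follistatin, which binds activin A and blocks its access to receptors. The comparisons therefore ask which of these genes the cells expressed at a different level under activin A, and whether the antagonist removed the difference. The labels do not say whether the replicates were separate cultures or mice, so p-values measure only the spread between these libraries. The 12 libraries held between 5643708 and 5955400 normalized counts, which are read counts that the authors had normalized before deposit, so the original depth is unknown. All 8 listed macrophage markers (Adgre1, Csf1r, Itgam, Cd68, Mertk, Fcgr1, Lyz2 and Ptprc) were detected, with a summed level of 13065 to 14475 normalized counts per library. None of them passed the test in any of the 7 comparisons (with the replicate number as a block, 1 was higher in Act than in Act + FST). Whether the highest values were capped in processing is not known, so unchanged levels of such abundant genes are weak evidence on the make-up of the cultures. Stromal markers (Col1a1, Col1a2, Col3a1, Pdgfra and Col6a3; a further marker, Lum, was not listed) summed to 48 to 198 in the 4 libraries numbered 1 and to 3 to 18 in the 8 libraries numbered 2 or 3. Results of Gdf15, Tgfb3, Inhba, Nrros, Bmp1 and Fstl3 are therefore also given for those 8 libraries.

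Ligands of the TGF-β family are made as dimeric precursors, cut by proteases and released to bind pairs of type II and type I serine/threonine kinase receptors, which pass the signal on through SMAD transcription factors. TGF-β1, TGF-β2 and TGF-β3 leave the cell in a latent complex and must be freed from it before they act, whereas activin A, a dimer of the Inhba product, is held in check by follistatin and by its relative FSTL3. Macrophages are a known source of TGF-β1, of activin A after inflammatory stimuli and of GDF15 under cell stress. The activin A in these cultures was added as protein, so Inhba reads report the cells' own transcript.

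RefSeq sequences upstream of the transcription start (GRCm38.p6) were at hand for 7 of the 10 genes. They are shown for Gdf15, the ligand gene that differed most between groups, and for Tgfb1 and Inhba, which are set against it below. Each line gives the 250 bases before the annotated start in the direction of transcription, and capitals mark matches to the short SMAD-binding box CAGAC or its reverse complement GTCTG.
Gdf15 (chr8:70632457-70632706, minus strand): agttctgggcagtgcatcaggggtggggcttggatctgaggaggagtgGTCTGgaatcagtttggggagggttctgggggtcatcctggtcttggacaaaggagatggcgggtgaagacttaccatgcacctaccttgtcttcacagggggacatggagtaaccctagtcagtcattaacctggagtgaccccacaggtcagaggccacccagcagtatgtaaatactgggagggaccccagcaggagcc
Tgfb1 (chr7:25686752-25687001, plus strand): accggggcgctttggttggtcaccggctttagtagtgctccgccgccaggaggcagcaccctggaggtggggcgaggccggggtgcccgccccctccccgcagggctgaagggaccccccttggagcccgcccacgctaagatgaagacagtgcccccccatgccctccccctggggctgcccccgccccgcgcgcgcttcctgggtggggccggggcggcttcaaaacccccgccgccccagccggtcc
Inhba (chr13:16011601-16011850, plus strand): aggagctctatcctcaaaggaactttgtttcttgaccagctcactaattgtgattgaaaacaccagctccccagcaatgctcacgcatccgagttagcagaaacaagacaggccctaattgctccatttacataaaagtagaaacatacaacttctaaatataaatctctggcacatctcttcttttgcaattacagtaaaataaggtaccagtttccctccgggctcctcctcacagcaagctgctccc
The Gdf15 window held 1 match, and those of Tgfb1 and Inhba held 0. A match to CAGAC or GTCTG was present in 42.2% of the 32851 RefSeq promoter windows of this length, so a single match is common. Of the other genes, the Fstl3 and Tgfb2 windows held 2 matches each, the Nrros window 1 and the Gdf11 window 0. Neither the cAMP response element TGACGTCA, which occurred in 1.55% of windows, nor the CHOP-ATF4 composite element TGATGCAA or its reverse complement TTGCATCA, which occurred in 0.791%, was present in the 8 windows of these 7 genes. No motif overlapped another. These are letter matches in a fixed window and not binding sites.

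On the scale of normalized counts per kilobase of exon, averaged over the 12 libraries, the genes spanned a wide range of levels. Nrros stood highest at 281 and Tgfb1 next at 232, above 96.1% and 93.2% of the tested genes. Gdf15 followed at 104 and Gdf3 at 88.7, where the median tested gene had 61.9 and the highest 883. Whether values near that maximum were capped in processing was not tested, so levels and small changes of high genes may be compressed. Fstl3 had 16.3, Tgfb3 4.04, Inhba 1.32, Bmp1 0.789, Tgfb2 0.389 and Gdf11 0.267. Adjacent ranks overlapped in their ranges over libraries for Nrros (248 to 304) and Tgfb1 (217 to 252), for Gdf15 (45.4 to 139) and Gdf3 (68.9 to 105), and for each step from Tgfb3 down to Gdf11. The drops from Tgfb1 to Gdf15, from Gdf3 to Fstl3 and from Fstl3 to Tgfb3 (1.48 to 7.98) were without overlap. The order of Gdf15 and Gdf3 depended on the group: per kilobase of exon, mean Gdf15 was 113 against 89.1 for Gdf3 in CTRL, 120 against 79.7 in Act + FST and 129 against 90.1 in FST, but 52.6 against 95.9 in Act. Of the 3 TGF-β isoforms, Tgfb1 made up 96.3% to 99.2% of the summed level per kilobase in every library, Tgfb3 0.641% to 3.45% and Tgfb2 0% to 0.524%.

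**Figure D1:**
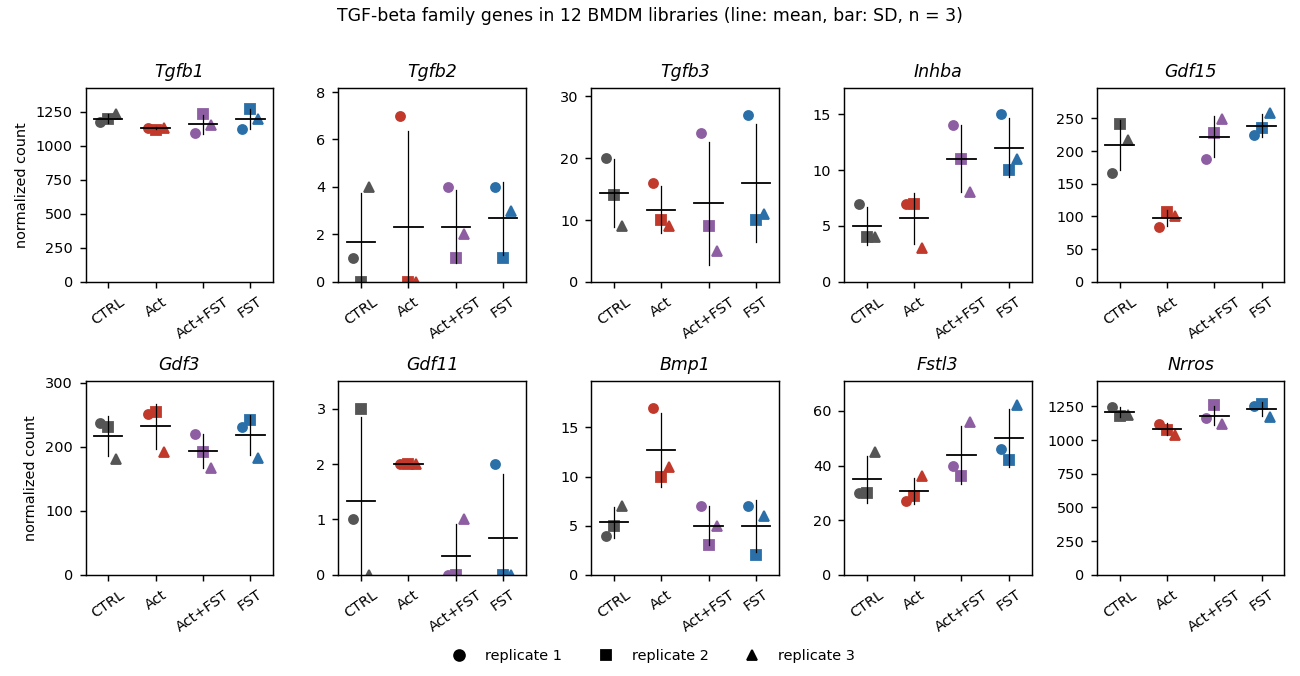
Normalized counts of the 10 genes in all 12 libraries, 1 panel per gene with its own axis from 0, with the 4 groups along the horizontal axis. Symbols are single libraries by replicate number, horizontal lines are means and vertical bars the SD of 3 libraries, drawn from 0 where the SD exceeds the mean. Gdf15 lies between 84 and 107 in Act and between 167 and 258 in all other libraries, and Inhba reaches at most 7 without FST288 and at least 8 with it.

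Gdf15 was the single member of the set that passed both the adjusted p threshold and a 2-fold change under activin A. This stress-responsive ligand, which acts on a receptor in the hindbrain, is encoded at chr8:70629393-70632456 (GRCm38, minus strand, 3 exons, identifier ENSMUSG00000038508). Normalized counts were 167, 242 and 217 for the CTRL libraries against 84, 107 and 101 for the Act libraries. Those with FST288 had 188, 228 and 249 where activin A was added and 224, 236 and 258 where it was not. All 3 Act libraries lay below all 9 others, and the other groups overlapped one another. A lack of overlap between Act and CTRL was found for 35.7% of all genes tested, and the share for 3 against 9 libraries was not counted. The mean fell from 209 ± 38.2 (SD, n = 3) in CTRL to 97.3 ± 11.9 in Act, a 2.12-fold decrease (log2 fold change −1.08, SE 0.14, 95% confidence interval −1.39 to −0.77, limma adjusted p = 0.0002). Genes lower in Act than in CTRL at the same adjusted p made up 9.97% of the 14318 tested, and those at least 2-fold lower 3.09%. Against Act + FST the decrease in Act was 2.26-fold (log2 fold change −1.18, SE 0.14, adjusted p = 0.00011), where 10.2% of genes were lower and 3.1% were at least 2-fold lower. These comparisons share the Act libraries and are not independent.

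The same ligand gene was close to its control level when FST288 was present with activin A. The Act + FST mean was 222 ± 31.0 and the FST mean 239 ± 17.2, with a log2 fold change of −0.12 between them (95% confidence interval −0.43 to 0.19). The difference between the activin A effect without and with FST288, tested as an interaction over all 4 groups, was −0.97 (SE 0.20, 95% confidence interval −1.40 to −0.53, adjusted p = 0.013), in a test that 6.74% of genes passed. It stayed past the threshold in all 12 fits that left out 1 library. Gdf15 was lower in Act in 3 of 3 pairs of libraries with the same replicate number, by 0.98, 1.17 and 1.10 on the log2 scale. In the 8 libraries numbered 2 or 3 the log2 fold change of Act versus CTRL was −1.13 (adjusted p = 0.00014).

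Some markers of granulocytes and their progenitors were also lower in Act. Of 5 such markers, Mpo (log2 fold change −2.01, adjusted p = 0.0092) and Elane (−1.64, adjusted p = 0.025), which encode myeloperoxidase and neutrophil elastase, were lower in Act than in CTRL, and Ly6g, Camp and Ltf did not pass the test. Their summed level was 388 to 694 normalized counts for Act, 537 to 781 for CTRL, 467 to 788 for Act + FST and 529 to 776 for FST, and no marker was at 0 in all libraries. The monocyte marker Ccr2 was higher in Act than in CTRL (log2 fold change 1.04, adjusted p = 0.043). No endothelial, lymphocyte, dendritic, stromal or megakaryocyte and erythroid marker passed the test of Act versus CTRL without the replicate block, and the mast cell and basophil markers were too low to test. With the block, 1 stromal and 2 dendritic markers were higher in Act, and 1 endothelial and 1 megakaryocyte and erythroid marker lower. The stromal sum was higher in Act than in CTRL in all 3 pairs with the same number, at 198 against 48, 18 against 4 and 12 against 3. It was also higher in FST than in CTRL in each pair, at 103, 7 and 8, and was 86, 3 and 13 in Act + FST. In bulk RNA, fewer cells of a type and less RNA per cell cannot be told apart, and the part of these markers in the Gdf15 result was not tested. The 3 genes with the pattern most like that of Gdf15 across the 12 libraries, among 10633 other genes with a mean of at least 50, were Hdac10 (Pearson's r = 0.982), Klra3 (0.977) and Ddit3 (0.977). These values describe likeness over libraries that share their treatment, and are given without a test. Hdac10 was at 126 to 142 normalized counts in Act and 226 to 335 elsewhere, and Klra3 at 31 to 44 and 60 to 119. Ddit3, which encodes the stress-induced transcription factor CHOP, ranged from 217 to 220 in Act and from 252 to 310 in the other groups, a narrower difference than that of Gdf15.

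The TGF-β isoforms did not pass the test in any comparison. Tgfb1 lies at chr7:25687002-25705077 (plus strand, 8 exons). For Tgfb1 the CTRL libraries showed 1172, 1197 and 1238 normalized counts and the Act libraries 1133, 1117 and 1130. The Act + FST values were 1093, 1232 and 1153, those of FST alone 1124, 1271 and 1201. The Act and CTRL libraries did not overlap, which was the case for 35.7% of all genes tested, but the Act values lay within the range of the FST288 groups. The log2 fold change of Act versus CTRL was −0.09 (95% confidence interval −0.21 to 0.02, adjusted p = 0.25), so the interval leaves room for a small decrease and not for an increase above 0.02. For Act + FST versus FST it was −0.05 (−0.16 to 0.07), and for FST versus CTRL −0.01 (−0.12 to 0.11).

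Tgfb3 (chr12:86056745-86079041, minus strand) was low, and its values stood apart by replicate number. Replicates 1, 2 and 3 had 20, 14 and 9 normalized counts for CTRL, 16, 10 and 9 for Act, 24, 9 and 5 for Act + FST and 27, 10 and 11 for FST. In each group the library numbered 1 was the highest, and the 4 libraries numbered 1 (16 to 27) did not overlap the other 8 (5 to 14). The share of all genes with such a separation was not counted, and libraries with the same number deviated together over the genes tested. The same 4 libraries had the higher stromal marker sums (CTRL 48, Act 198, Act + FST 86, FST 103). The order among the 4 did not match, since the library with the highest stromal sum had the lowest Tgfb3 of these 4, and the part of stromal cells in the Tgfb3 level was not tested. Act versus CTRL gave a log2 fold change of −0.25, with a wide 95% confidence interval of −1.37 to 0.87. In the 8 libraries numbered 2 or 3 it was −0.22 (−1.10 to 0.66). A small part of the Tgfb3 exons overlaps genes on the opposite strand (4.82% with Gm37804 and 7.6% with Gm48008), and the strand setting of the counting is not given in the sources used here. Tgfb2 ranged from 0 to 7 normalized counts and was at 0 in 3 of the 12 libraries.

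**Figure D2:**
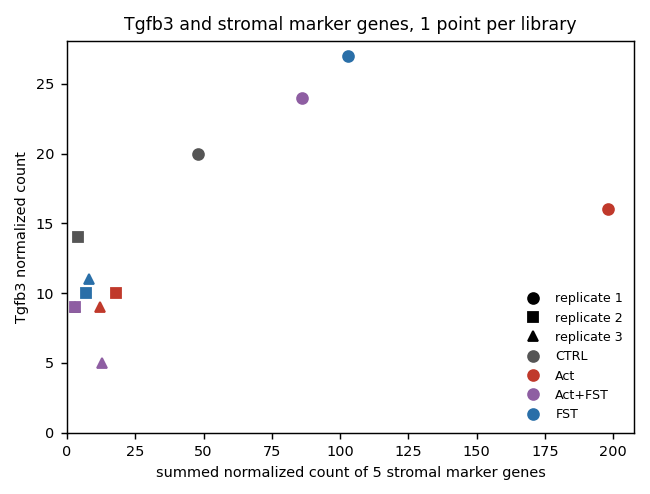
Tgfb3 normalized count (vertical axis) against the summed normalized count of 5 stromal marker genes (horizontal axis), 1 point per library, with colour for the group and shape for the replicate number. The 4 libraries numbered 1 lie at 16 or more Tgfb3 counts and 48 or more stromal counts, and the other 8 at 14 or fewer and 18 or fewer. The share of all genes that separate in this way was not counted.

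Inhba, the gene of the activin A subunit, was near the lower limit of the test and was not called in Act versus CTRL. It lies at chr13:16011851-16031621 (plus strand, 5 exons). CTRL libraries had 7, 4 and 4 normalized counts and Act libraries 7, 7 and 3, and thus overlapped (log2 fold change 0.12, 95% confidence interval −0.65 to 0.89, adjusted p = 0.86). The counts were 14, 11 and 8 under both proteins and 15, 10 and 11 under FST288 alone, with a log2 fold change of −0.13 between these groups (−0.90 to 0.64). All 6 libraries with FST288 lay above all 6 without it. Act versus Act + FST gave a log2 fold change of −0.89 (limma adjusted p = 0.1, or 0.037 with the replicate block). FST versus CTRL gave a log2 fold change of 1.13 (95% confidence interval 0.36 to 1.90) and Act + FST versus CTRL 1.01 (0.23 to 1.78), with unadjusted p of 0.0075 and 0.015 in limma and adjusted p of 1.0 and 0.90. Neither comparison, nor Act + FST versus FST, had any gene past the adjusted p (0.0% of 14318 in each). An unadjusted p under 0.05 in limma was reached by 299, 655 and 502 genes. In each case this was below the share of 0.05 that such p-values reach without any difference.

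Because the values of Inhba separated by FST288 in both pairs of groups, the 6 libraries with FST288 were also compared with the 6 without it in the same fit, a comparison added after these values had been seen. Inhba was 2.01-fold higher with FST288 (log2 fold change 1.01, SE 0.25, 95% confidence interval 0.47 to 1.56, adjusted p = 0.02), where 13.1% of genes were called. The comparison averages FST versus CTRL and Act + FST versus Act, so it also calls genes that activin A changed only without FST288. By itself, FST versus CTRL called 0.0% of genes. A separation of 6 from 6 libraries without overlap was found for 63 genes, or 0.44%. As the comparison was chosen for this separation in Inhba, its adjusted p for Inhba and that share are descriptions and not tests. The gap for Inhba was from 7 to 8 normalized counts. The adjusted p lay between 0.017 and 0.048 when 1 library was left out. The 8 libraries numbered 2 or 3 gave a log2 fold change of 1.04 with an adjusted p of 0.065. Inhba was also the highest in the library numbered 1 within CTRL, Act + FST and FST, and equal to the highest within Act. At a mean of 8.42 normalized counts, counting error is a large part of each value.

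**Figure D3:**
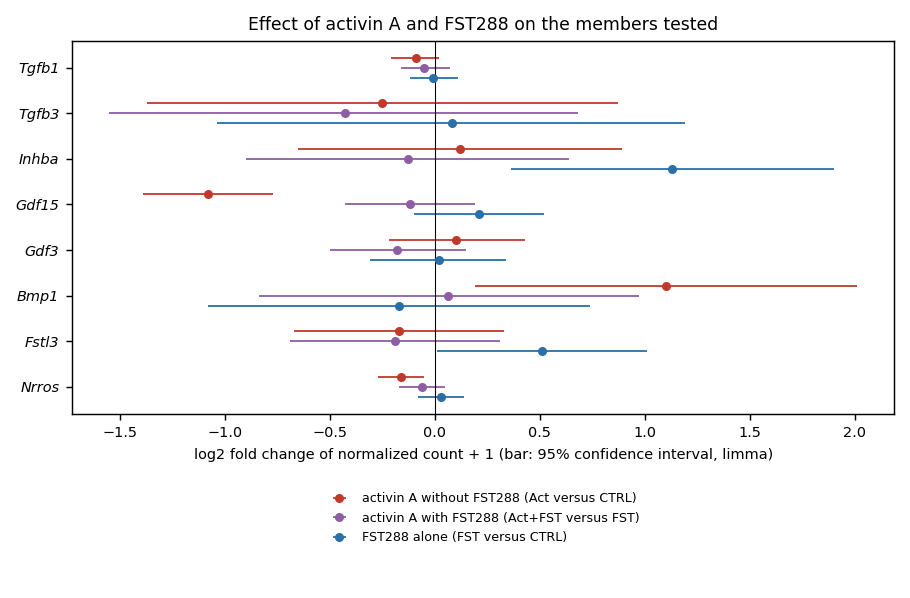
Log2 fold changes of normalized count + 1 (horizontal axis) of the 8 genes tested, for activin A without FST288 (Act versus CTRL), activin A with FST288 (Act + FST versus FST) and FST288 alone (FST versus CTRL). Points are estimates and bars 95% confidence intervals from limma. The interval of Gdf15 is −1.39 to −0.77 for activin A alone and −0.43 to 0.19 with FST288, and that of Inhba for FST288 alone is 0.36 to 1.90.

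The remaining ligands were not called in the fit without the replicate block or were too low to judge. Gdf3 (chr6:122605403-122610087, minus strand), a ligand of early embryonic patterning that macrophages also express, showed 237, 231 and 180 normalized counts for CTRL, 251, 254 and 192 for Act, 220, 192 and 167 for Act + FST and 230, 242 and 183 for FST. Replicate 3 was the lowest in every group, and the groups overlapped. Act was higher than Act + FST in 3 of 3 pairs with the same number (log2 fold change 0.26, 95% confidence interval −0.06 to 0.59, adjusted p = 0.25). With the replicate number as a block this adjusted p was 0.0048 and that of the interaction 0.044 (log2 difference 0.28). Gdf11, a relative of myostatin, had between 0 and 3 normalized counts and was at 2 in each Act library.

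Nrros (chr16:32142785-32165594, minus strand), abundant in these cells, was slightly lower under activin A. Its product, also called LRRC33, tethers latent TGF-β1 on macrophages and microglia. CTRL libraries had 1247, 1182 and 1187 normalized counts, Act libraries 1122, 1076 and 1035, Act + FST libraries 1163, 1258 and 1121, and FST libraries 1255, 1270 and 1173. The Act libraries lay below all CTRL and FST libraries but met the lowest Act + FST library. Such a lack of overlap between Act and CTRL was found for 35.7% of all genes tested. Act was 1.12-fold lower than CTRL (log2 fold change −0.16, SE 0.05, 95% confidence interval −0.27 to −0.05, adjusted p = 0.044). This call was close to the threshold: it held in 4 of the 12 fits without 1 library, with adjusted p from 0.028 to 0.15, and in the 8 libraries numbered 2 or 3 the adjusted p was 0.11. Act versus Act + FST gave −0.13 (adjusted p = 0.095, or 0.018 with the replicate block).

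Bmp1 (chr14:70474558-70520234, minus strand, 20 exons) had its highest values in Act, at very low counts. It did not pass the test in the fit without the replicate block. CTRL libraries had 4, 5 and 7 normalized counts, Act libraries 17, 10 and 11, Act + FST libraries 7, 3 and 5, and FST libraries 7, 2 and 6. All 3 Act libraries lay above the other 9. Act and CTRL did not overlap for 35.7% of all genes tested, and the share for 3 against 9 libraries was not counted. The log2 fold change was 1.10 against CTRL (SE 0.42, 95% confidence interval 0.19 to 2.01, adjusted p = 0.085) and 1.21 against Act + FST (0.30 to 2.12, adjusted p = 0.059), and the gene was not called in either. With the replicate block the adjusted p was 0.033 and 0.020, and the gene was called in both. Stromal cells are a known source of Bmp1, and Act replicate 1, the library with the highest Bmp1, had the highest stromal sum. The order did not match elsewhere. Replicate 1 of FST and of Act + FST had stromal sums of 103 and 86 but 7 Bmp1 counts each. Act replicates 2 and 3 had sums of 18 and 12 and Bmp1 counts of 10 and 11. The part of stromal cells in the Bmp1 values was not tested. In the 8 libraries numbered 2 or 3 the log2 fold change against CTRL was 0.73 (95% confidence interval −0.39 to 1.85, adjusted p = 0.37).

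Fstl3 lies at chr10:79777272-79782630 (plus strand). Its counts after normalization were 30, 30 and 45 for CTRL, 27, 29 and 36 for Act, 40, 36 and 56 for Act + FST and 46, 42 and 62 for FST. Replicate 3 was the highest in each group, and groups overlapped. Within replicate numbers Fstl3 was higher in FST than in CTRL in 3 of 3 pairs, by 0.60, 0.47 and 0.45 on the log2 scale, and all 3 Act + FST libraries exceeded the Act library of the same number. With FST288 against without it, the log2 fold change was 0.50 (95% confidence interval 0.15 to 0.85, adjusted p = 0.064, and 0.0033 with the replicate block). Act versus Act + FST gave −0.49 (adjusted p = 0.16, and 0.021 with the block). In the 8 libraries numbered 2 or 3, the log2 fold change with FST288 against without it was 0.46 (limma adjusted p = 0.23). Fstl3 shares 1157 of its exonic bases (47.32%) with Prss57 on the opposite strand, a gene with 0 to 6 normalized counts here.

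Counted over the 8 genes tested, 0 were higher and 2 lower in Act than in CTRL (Gdf15 and Nrros), beside 10.3% and 9.97% of all genes. Against Act + FST, 0 were higher and 1 lower, beside 11.1% and 10.2%. The median log2 fold change of Act versus CTRL was −0.09 over the 5 ligand genes tested and −0.16 over Bmp1, Fstl3 and Nrros, against 0.00359 over all genes. With the replicate block, Act versus Act + FST called 6 of the 8 genes (all but Tgfb1 and Tgfb3), in a fit that called 32.6% of all genes. The block called 31.5% of genes in Act versus CTRL, 16.3% in the interaction and 23.3% with FST288 against without it, where Fstl3, Gdf15, Inhba and Nrros passed. The last of these comparisons also holds the difference of Act + FST from Act, so its calls cannot be read as responses to FST288 alone.

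Other genes of the pathway were taken from 4 lists, each compared between Act and CTRL, where 10.3% of all genes tested were higher and 9.97% lower. Of 26 further family ligands 4 were listed and 3 tested, with 0 higher and 1 lower (list median −0.30). This was Bmp2, a bone morphogenetic protein, at 324 to 458 normalized counts in CTRL and 122 to 248 in Act (log2 fold change −1.02, SE 0.29, adjusted p = 0.026). Its interaction with FST288 did not pass the test (−0.76, adjusted p = 0.34). Of 20 genes for latency and activation of ligands, 15 were listed and 12 tested, with 3 higher and 1 lower (median 0.17). Ltbp3, which binds latent TGF-β, rose by 0.43 on the log2 scale (adjusted p = 0.0011), and Itgav, the integrin αv subunit that takes part in freeing TGF-β from latency, by 0.95 (adjusted p = 0.0022). Emilin1, a matrix protein that limits TGF-β maturation, was higher by 0.25, and Pcolce, an enhancer of the procollagen cleavage by BMP1, fell by 1.12 (adjusted p = 0.014) at no more than 17 normalized counts in CTRL.

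Of 19 secreted antagonists 9 were listed and 7 tested, with 2 higher and 0 lower (median 0.45). Fst, the gene of follistatin itself, was not listed. The genes that rose encode serine proteases known to dampen TGF-β family signals. Htra3 was at 7 to 12 normalized counts in CTRL and 51 to 62 in Act (log2 fold change 2.44, SE 0.33, adjusted p = 0.00022), and Htra1 at 16 to 32 and 68 to 94 (1.81, SE 0.38, adjusted p = 0.0048). Of 15 receptors and co-receptors 12 were listed and 11 tested, with 2 higher and 2 lower (median 0.05). Tgfbr1, the type I receptor for TGF-β, rose from a mean of 1160 ± 70.8 to 2120 ± 161 normalized counts (log2 fold change 0.87, SE 0.07, adjusted p = 3.8e-06), and Acvr1, another type I receptor, by 0.45 (adjusted p = 0.0001). The co-receptors Tgfbr3 and Eng fell by 1.15 (adjusted p = 0.007) and 0.24 (adjusted p = 0.0042) on the log2 scale. With the replicate block, Act versus CTRL called 1 higher and 1 lower of the further ligands, 5 and 2 of the latency and activation genes, 3 and 0 of the antagonists and 3 and 2 of the receptors, in a fit that called 31.5% of all genes in either direction. In Act + FST versus FST no gene of these lists passed, as was the case for all genes.

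**Figure D4:**
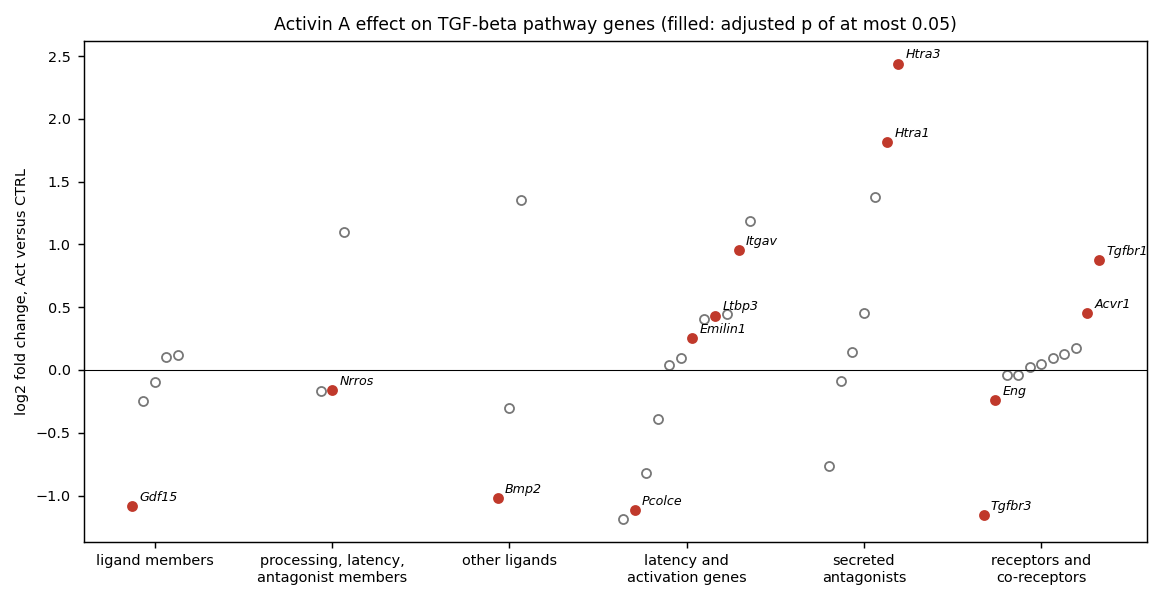
Log2 fold change of Act versus CTRL (vertical axis) for the tested genes of the set and of the 4 further lists (horizontal axis, sorted within each list). Filled points are genes with an adjusted p of at most 0.05 in limma and are named, and open points are those above it. Htra3 at 2.44 and Htra1 at 1.81 lie highest, and Gdf15 at −1.08, Bmp2 at −1.02, Pcolce at −1.12 and Tgfbr3 at −1.15 lie lowest among the filled points.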

How the data were processed

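RNA was sequenced from 12 BMDM libraries, 3 per group as labelled. The deposited table holds a signal per gene and library: per the labels and the study's methods, the authors trimmed reads with Trimmomatic 0.39, aligned them to mm10 with STAR 2.7.9a, counted reads per gene with featureCounts 2.0.2 and analysed them with DESeq2 1.30.0. The deposited values are whole numbers that the authors call normalized, and are referred to here as normalized counts. The scaling formula, the strand setting and any removal of duplicate reads are not given in the sources used here. Raw counts could not be recovered, so depth is unknown.

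Group means were compared with limma 3.58.1 under R 4.3.3 (trended empirical Bayes, two-sided) on log2(normalized count + 1), which understates changes of low genes. Genes with a mean of at least 5 over all 12 libraries were tested (14318 of 18376), in 1 model with 4 group means, with Benjamini-Hochberg adjustment over all of them. A call needed an adjusted p of at most 0.05, and a DEG also a 2-fold change. The script was tested on simulated data. Libraries with the same replicate number, taken from the labels, deviated together from their group means (18 pairs, r from 0.157 to 0.481), so the numbers were taken to pair the libraries. Calls, standard errors and intervals are from the fit without this pairing unless stated, and so do not take the pairing into account. A fit with the number as a block is given where it changes a call of a gene of the set. For the pathway lists it is given as counts in Act versus CTRL. Coordinates and exon lengths are from GENCODE (GRCm38), which contained 18359 of the gene identifiers and lacked 17.

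The genes of the set, the pathway lists and the marker lists were chosen with earlier results of these data known. The result of the monocyte marker list as a whole is not reported here. Named besides the set are up to 4 genes per pathway list with the smallest adjusted p in Act versus CTRL, and the 3 genes most correlated with each member that was a DEG there. Alternatives were pseudocounts of 0.5 and 5, no filter and a minimum mean of 50, quantile normalization, rescaling by median ratios, the groups compared alone, the replicate block, a required 2-fold change, and leaving out each library. The comparison of FST288 present with absent and the fit to the 8 libraries numbered 2 or 3 were added after the data were seen. No library was left out of the reported fits.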

Additional observations from a re-analysis of the deposited data

Results flagged for a closer look

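For 1 of the 8 genes of the set that were tested and 6 of the 11 other pathway genes named above, the activin A effect differed with FST288, by the interaction test over all 4 groups with adjusted p from limma over all 14318 genes, of which 6.74% passed. Those 11 had been named for their adjusted p in Act versus CTRL, a difference that is part of the interaction, so their share is not set against that of all genes. The log2 difference (the effect without FST288 minus the effect with it) was −0.97 for Gdf15 (adjusted p = 0.013). It was 0.46 for Ltbp3 (adjusted p = 0.017) and 0.94 for Itgav (adjusted p = 0.043). For the proteases it was 2.51 for Htra3 (adjusted p = 0.0063) and 2.17 for Htra1 (adjusted p = 0.031). For the type I receptors it was 0.85 for Tgfbr1 (adjusted p = 0.00038) and 0.47 for Acvr1 (adjusted p = 0.0033). Groups of 3 libraries were too small for a test of single outlying libraries.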

How the results depend on the processing

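The number of genes of the set past the adjusted p was compared across the alternatives. In Act versus CTRL it was 2, and 1 both with a 2-fold change required and in the 8 libraries numbered 2 or 3 (Gdf15 in each), 3 with quantile normalization and with the replicate block (Bmp1 added in both), and 1 to 2 when 1 library was left out. Nrros lost its call without CTRL replicate 1, 2 or 3, Act replicate 2 or 3, Act + FST replicate 1, or FST replicate 1 or 2, and Bmp1 gained one without FST replicate 2 (also against Act + FST, and there without Act + FST replicate 1 as well). In Act versus Act + FST it was 1, 2 with a pseudocount of 5 (Bmp1 added), 3 with quantile normalization (Bmp1 and Nrros added), 6 with the replicate block, and 1 to 2 without 1 library. In the interaction it was 1, 2 with the replicate block (Gdf3 added), 0 with a 2-fold change required, and 1 without any 1 library. With FST288 against without it, a comparison chosen for the values of Inhba, it was 2, 1 with a minimum mean of 50 (which removes Inhba), 1 in the 8 libraries, 1 with a 2-fold change, 4 with the replicate block, and 2 to 3 without 1 library. In the other comparisons it was 0 under every alternative, and the replicate block changed no call of a member other than those named here and beside the results. No member's direction reversed where it was called. Over all genes, the replicate block moved the calls in Act versus CTRL from 1468 higher and 1428 lower to 2338 and 2170, in Act versus Act + FST from 1588 and 1460 to 2453 and 2210, in the interaction from 571 and 394 to 1340 and 997, and with FST288 against without it from 890 and 979 to 1596 and 1739. It gave 12 and 19 calls in Act + FST versus FST and 40 and 40 in Act + FST versus CTRL, where there were 0. The restriction to the groups compared was not run for comparisons that need all 4. The cause of these shifts was not tested. Low counts limit Inhba, Bmp1 and Tgfb3 most, whose intervals span more than 1 log2 unit.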
